A study of Mus musculus with 12 samples.

Results

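The outer layer of mouse epidermis is sealed by lipids, and 7 genes were followed here in cultured keratinocytes, which make up most of that tissue. They are Elovl4, Cers3, Ugcg, Abca12, Alox12b and Aloxe3, which make, transport or process such lipids, and Them5. Each had 1 transcript cluster (the set of probes that stands for a gene) with a single gene symbol in the platform's annotation, and all 7 were among the 15868 genes that passed a filter on low values. The genes were selected on their known function with their levels on these same arrays already known. Their levels and differences are therefore a description, and calls from the fit across all genes are given only as counts beside the share of all genes called. All cells were primary keratinocytes of FVB/N mice, hybridised to Affymetrix Mouse Gene 1.0 ST arrays, with 3 arrays in each of 4 groups and 12 in all. The first group were MT-HGF cells, mock transduced and kept for 24 h with AG1478, a small-molecule inhibitor of the epidermal growth factor receptor (EGFR) kinase, in medium with 8% serum. The second were MT-HGF control cells. MT-HGF mice express hepatocyte growth factor (HGF), which activates the receptor MET, from a transgene that is known to be under a metallothionein promoter. The third were wild-type cells given v-rasHa, the Hras oncogene of a retrovirus, by transduction (RAS cells), and the fourth were wild-type control cells (WT). A note on a transduction of 3 days is shared by the labels of the MT-HGF, RAS and WT arrays. The sources used here do not say whether control cells received a mock transduction, so v-rasHa and the transduction cannot be told apart. The AG1478 arrays came with other notes on growth and extraction than the 9 other arrays, and no vehicle-treated array of that kind was analysed here. AG1478 therefore cannot be told apart from that difference in handling, or from the mock transduction if the MT-HGF control cells had none. Replicates of the MT-HGF, RAS and WT groups are labelled biological, yet no label names separate animals or cultures. Errors and p-values therefore cover the array-to-array spread, which may be technical.

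As background, the barrier of the skin rests on ceramides with very long acyl chains. Elovl4 lengthens fatty acids to ultra-long chains, and Cers3 joins these to a sphingoid base to form ceramide. Ugcg, the glucosylceramide synthase, adds a glucose. Abca12 loads the glucosylated lipid into lamellar granules, which keratinocytes of the granular layer secrete. The lipoxygenase of Alox12b (12R-LOX) then oxygenates the linoleate on the ceramide, and the product of Aloxe3 (eLOX3) turns that peroxide into an epoxy alcohol, a step towards the bonding of the lipid to the protein envelope. Loss of any of these 6 genes in mice impairs the barrier, and for most of them human mutations cause ichthyosis. Them5 encodes an acyl-CoA thioesterase of mitochondria that is known in mouse for the remodelling of cardiolipin, and a role in barrier lipids is not established.

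Array medians ranged from 6.77 to 6.84 log2 units, but RMA normalization makes medians alike, so they do not measure quality. Arrays correlated with their group mates at 0.993 to 0.997 on average, and replicate 3 of the AG1478 group was the lowest. All 12 keratinocyte markers, such as Krt5, Krt14 and Trp63, were above the array background on every array (the background is the 95th percentile of 159 chemosensory receptor genes on that array, 6.8 to 7.12 log2 units). Each of the 7 genes was above it on every array too. The background was highest, at 7.12, on replicate 3 of the AG1478 group. Markers of other cells were also present. The summed level of 12 fibroblast markers, on the linear scale of the arrays, was 7841 to 8225 in MT-HGF cells with AG1478, 7397 to 7807 in MT-HGF cells and 6717 to 6770 in RAS cells, against 9879 to 10508 in WT cells, and all but Lum were above background in every group. Vim had the highest level of these markers in each group and so made the largest part of each sum. Single markers went both ways. In RAS against WT cells 0 of the 12 were called higher and 7 lower, where 12.6% and 19.9% of all genes were called. In MT-HGF against WT cells 4 were called higher and 8 lower, where 17.1% and 23.9% of all genes were called. The 4 were Dcn (1.77 ± 0.094 log2 units), Fbln1 (0.90 ± 0.071), Col3a1 (0.31 ± 0.084) and Lum, which was not above background. In MT-HGF cells with AG1478 against MT-HGF cells 1 was called higher and 1 lower, where 6.57% and 9.91% of all genes were called. The 8 melanocyte markers were above background in every group and summed to 10559 to 11731 in MT-HGF cells with AG1478, 10543 to 11852 in MT-HGF cells and 14191 to 15612 in RAS cells, against 13471 to 14723 in WT cells. Of these 0 were called higher and 6 lower in MT-HGF against WT cells, and 0 either way in RAS against WT cells. Of 8 sebocyte markers listed, 3 were tested, namely Scd3, Plin2 and Fasn, and these cannot tell whether sebocytes were present. Scd3 was not above background in WT cells, and Plin2 and Fasn made up most of the sum. The sum was 3339 to 3488 in MT-HGF cells with AG1478, 4546 to 4686 in MT-HGF cells and 3759 to 4052 in RAS cells, against 3382 to 3600 in WT cells. None of the 4 endothelial markers measured was above background on any array, and the leukocyte marker Ptprc was not either. The sum of 6 leukocyte markers was 1384 to 1663 in MT-HGF cells with AG1478, 1486 to 1637 in MT-HGF cells and 1538 to 1736 in RAS cells, against 1034 to 1087 in WT cells. In it Cd68, which many cell types express, was the 1 marker above background on every array of the first 3 groups. Lyz2 went the other way, above background on the 3 WT arrays at 7.69 ± 0.51 log2 units (SD) and not above it in the 3 other groups. Keratinocytes of the granular layer, where the barrier lipids are made, have markers of their own, and all 10 measured were above background on every array. Their sum was 35697 to 37149 in MT-HGF cells with AG1478, 29190 to 33658 in MT-HGF cells and 30742 to 33307 in RAS cells, against 13048 to 14461 in WT cells. Of the 10, 9 were called higher and 0 lower in RAS against WT cells, and 10 and 0 in MT-HGF against WT cells. The part of these cells and states in the values of the 7 genes was not tested. In bulk RNA, fewer cells of a type and less RNA per cell cannot be told apart.

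The 250 bases before the start of the gene are shown for Elovl4 and Cers3, whose profiles were the most alike of any pair of the 7, for Alox12b, which differed most from WT cells in RAS and MT-HGF cells, and for Them5, which went the other way. They are RefSeq sequences of build GRCm38.p6, written 5′ to 3′ on the strand of the gene. RefSeq promoters were matched for 6 of the 7 genes, all but Aloxe3. The Elovl4 stretch is chr9:83806306-83806555 (minus strand), that of Cers3 chr7:66743254-66743503, that of Alox12b chr11:69156822-69157071 and that of Them5 chr3:94341849-94342098 (all plus strand). Capitals mark matches to the motifs searched.
Elovl4: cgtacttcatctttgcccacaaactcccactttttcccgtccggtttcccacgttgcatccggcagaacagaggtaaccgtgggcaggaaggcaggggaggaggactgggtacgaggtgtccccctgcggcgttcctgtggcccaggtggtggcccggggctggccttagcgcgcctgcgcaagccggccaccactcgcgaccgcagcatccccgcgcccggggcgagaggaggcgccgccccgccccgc
Cers3: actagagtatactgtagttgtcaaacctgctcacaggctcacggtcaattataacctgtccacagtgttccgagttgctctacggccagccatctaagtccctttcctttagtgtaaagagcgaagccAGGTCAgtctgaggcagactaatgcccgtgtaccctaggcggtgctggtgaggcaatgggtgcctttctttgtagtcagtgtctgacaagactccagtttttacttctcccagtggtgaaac
Alox12b: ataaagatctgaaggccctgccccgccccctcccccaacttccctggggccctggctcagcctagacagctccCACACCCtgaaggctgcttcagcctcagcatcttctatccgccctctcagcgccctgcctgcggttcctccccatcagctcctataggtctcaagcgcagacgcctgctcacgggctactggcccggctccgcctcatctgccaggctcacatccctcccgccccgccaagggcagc
Them5: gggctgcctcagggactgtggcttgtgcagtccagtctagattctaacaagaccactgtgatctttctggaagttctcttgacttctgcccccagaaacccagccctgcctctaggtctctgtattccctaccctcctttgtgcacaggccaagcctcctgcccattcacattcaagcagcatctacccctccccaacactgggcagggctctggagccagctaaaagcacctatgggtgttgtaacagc

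The motifs were searched on both strands, and none overlapped another. The KLF-type motif GGGNGTG was in the Alox12b stretch, on the minus strand with its first base at position -177 from the start, and in that of Ugcg at -50. It was in 26.1% of the 32851 RefSeq promoter stretches of this length. The nuclear receptor motif AGGTCA was in the Cers3 stretch at -122, and in 14% of all. No match to the AP-1 motif TGANTCA (6.75% of all), the GRHL-type motif ACCGGTT (0.831%), the ETS motif CCGGAAG (6.91%) or the TATA box TATAAA (12.4%) was in any of the 6 stretches. The letters G and C made up 69.6% of the Elovl4 stretch and 80.4% of the Ugcg stretch, against 49.6% for Cers3, 53.2% for Abca12, 54.8% for Them5 and 66.0% for Alox12b. The genes share no single chromosome. Alox12b and Aloxe3 lie next to each other on chromosome 11 with 0 protein-coding genes between them in the RefSeq table, while the other 5 lie on chromosomes 1 (Abca12), 3 (Them5), 4 (Ugcg), 7 (Cers3) and 9 (Elovl4).

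Elovl4, Cers3, Ugcg, Abca12, Alox12b and Aloxe3 had their lowest level in WT cells and were higher in each of the 3 other groups. Them5 had its lowest levels in MT-HGF and RAS cells and its highest in MT-HGF cells with AG1478. A difference is called here where limma's fit across all 15868 genes gave an adjusted p under 0.05. In RAS against WT cells 6 of the 7 genes were called higher and 1 lower, where 12.6% of all genes were called higher and 19.9% lower. In MT-HGF against WT cells the counts were 6 and 1, where 17.1% and 23.9% of all genes were called. In MT-HGF cells with AG1478 against WT cells they were 7 and 0, where 16.8% and 26.2% were called. In MT-HGF cells with AG1478 against MT-HGF cells they were 1 and 6, where 6.57% and 9.91% were called, and in MT-HGF against RAS cells 2 and 2, where 13.4% and 12.6% were called. Nothing is read from these counts, since the genes were picked with the values in view. The comparisons with WT cells share the WT arrays, and those of MT-HGF cells share the MT-HGF arrays.

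**Figure D1:**
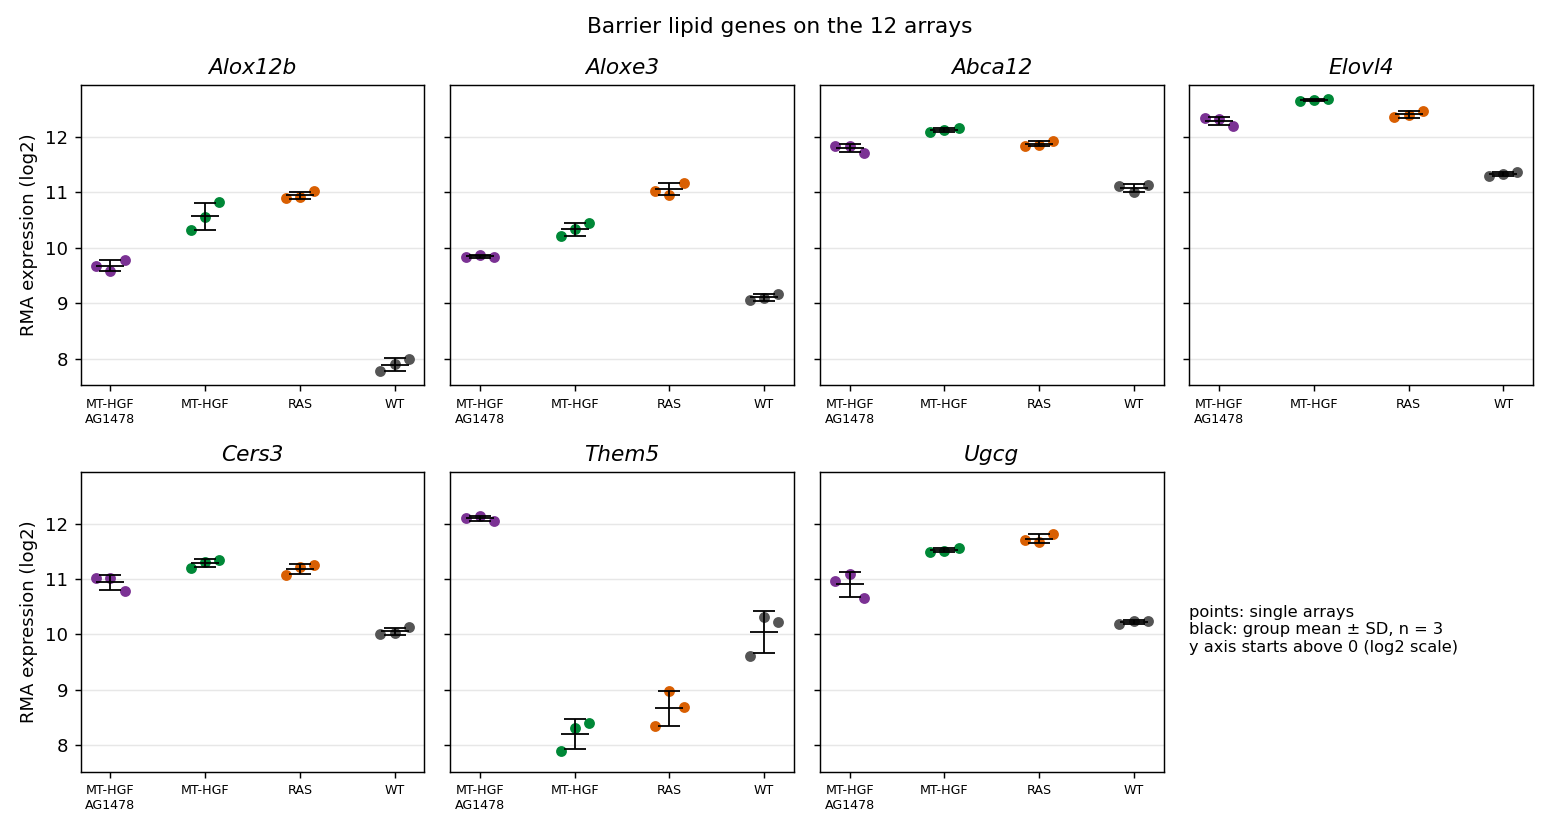
RMA expression in log2 units (y axis, which starts above 0) of the 7 genes on the 12 arrays, with 1 point per array and the group mean ± SD in black (n = 3). For 6 genes the WT arrays are the lowest, whereas the Them5 points of MT-HGF cells with AG1478, near 12.1, stand above all others of that gene.

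Elovl4, the elongase that supplies ultra-long chains, was at 12.34, 12.33 and 12.20 log2 units in MT-HGF cells with AG1478, at 12.64, 12.67 and 12.69 in MT-HGF cells and at 12.36, 12.39 and 12.47 in RAS cells, against 11.29, 11.33 and 11.36 in WT cells. The 4 groups did not overlap, and the order was MT-HGF, RAS, MT-HGF with AG1478 and WT. Compared with WT cells, the level was 2.53-fold in MT-HGF cells (1.34 ± 0.063 log2 units, SE, n = 3 arrays per group) and 2.11-fold in RAS cells (1.08 ± 0.063). The difference between MT-HGF cells with AG1478 and MT-HGF cells was -0.38 ± 0.063, and -0.33 without replicate 3 of the AG1478 group. Between MT-HGF cells with AG1478 and RAS cells it was -0.12 ± 0.063, under 2 standard errors.

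Cers3, the ceramide synthase that takes these chains, was at 11.02, 11.01 and 10.79 log2 units in MT-HGF cells with AG1478, at 11.21, 11.30 and 11.35 in MT-HGF cells and at 11.07, 11.21 and 11.25 in RAS cells, against 10.01, 10.02 and 10.14 in WT cells. The WT arrays lay apart at the low end, and the arrays of MT-HGF and RAS cells overlapped. The level was 2.35-fold that of WT cells in MT-HGF cells (1.23 ± 0.078 log2 units, SE) and 2.18-fold in RAS cells (1.12 ± 0.078). With AG1478 it differed from MT-HGF cells by -0.35 ± 0.078, and by -0.27 without replicate 3 of the AG1478 group. Elovl4 and Cers3 act in sequence, and against WT cells their differences were of similar size. Between MT-HGF and RAS cells the differences were 0.26 ± 0.063 for Elovl4 and 0.11 ± 0.078 for Cers3. Whether the 2 genes differ in this was not tested.

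Ugcg, which makes glucosylceramide, was at 10.96, 11.10 and 10.66 log2 units in MT-HGF cells with AG1478, at 11.50, 11.51 and 11.56 in MT-HGF cells and at 11.70, 11.67 and 11.82 in RAS cells, against 10.19, 10.25 and 10.24 in WT cells. The 4 groups did not overlap, and RAS cells were the highest. The spread was uneven, with an SD of 0.23 in MT-HGF cells with AG1478 against 0.034 in MT-HGF cells. The level was 2.84-fold that of WT cells in RAS cells (1.5 ± 0.089 log2 units, SE) and 2.45-fold in MT-HGF cells (1.3 ± 0.089). The difference between MT-HGF cells with AG1478 and MT-HGF cells was -0.62 ± 0.089 and became -0.49 without replicate 3 of the AG1478 group, the lowest of its 3 arrays.

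Abca12, the lipid transporter of lamellar granules, was at 11.84, 11.84 and 11.72 log2 units in MT-HGF cells with AG1478, at 12.09, 12.13 and 12.17 in MT-HGF cells and at 11.84, 11.86 and 11.93 in RAS cells, against 11.12, 11.00 and 11.12 in WT cells. MT-HGF cells were the highest. RAS cells and MT-HGF cells with AG1478 lay side by side, with a difference of -0.08 ± 0.065 between AG1478-treated MT-HGF and RAS cells, within 2 standard errors of 0. Compared with WT cells, the level was 2.07-fold in MT-HGF cells (1.05 ± 0.065 log2 units, SE) and 1.74-fold in RAS cells (0.80 ± 0.065), and it was the smallest difference of the 6 genes in both. With AG1478 it differed from MT-HGF cells by -0.33 ± 0.065, and by -0.29 without replicate 3 of the AG1478 group.

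Alox12b, the first of the lipoxygenases to act on the ceramide, was at 9.68, 9.57 and 9.78 log2 units in MT-HGF cells with AG1478, at 10.32, 10.55 and 10.82 in MT-HGF cells and at 10.90, 10.92 and 11.01 in RAS cells, against 7.77, 7.89 and 8.00 in WT cells. The 4 groups did not overlap. The level in RAS cells was 8.32-fold that of WT cells (3.06 ± 0.10 log2 units, SE), rank 28 from the top among the differences of the 15868 genes, and in MT-HGF cells 6.4-fold (2.68 ± 0.10 log2 units, SE), rank 46. With AG1478 it differed from MT-HGF cells by -0.89 ± 0.10, yet was still 3.46-fold that of WT cells (1.79 ± 0.10). The difference between MT-HGF and RAS cells, -0.38 ± 0.10, was -0.26 without replicate 1 of MT-HGF cells.

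Aloxe3, the neighbouring gene, whose enzyme takes up the product of the Alox12b enzyme, was at 9.82, 9.88 and 9.84 log2 units in MT-HGF cells with AG1478, at 10.21, 10.33 and 10.45 in MT-HGF cells and at 11.03, 10.96 and 11.17 in RAS cells, against 9.05, 9.09 and 9.17 in WT cells. The order of groups was that of Alox12b, with RAS cells the highest and no overlap. The level was 3.86-fold that of WT cells in RAS cells (1.95 ± 0.075 log2 units, SE) and 2.34-fold in MT-HGF cells (1.23 ± 0.075). MT-HGF and RAS cells differed by -0.72 ± 0.075, the largest distance between these groups among the 7 genes. The difference between MT-HGF cells with AG1478 and MT-HGF cells was -0.49 ± 0.075.

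Them5, the mitochondrial thioesterase, was at 12.09, 12.14 and 12.05 log2 units in MT-HGF cells with AG1478, at 7.90, 8.31 and 8.41 in MT-HGF cells and at 8.35, 8.97 and 8.68 in RAS cells, against 9.61, 10.31 and 10.22 in WT cells. The AG1478 arrays lay far above the rest, and those of MT-HGF and RAS cells overlapped at the low end. Them5 was 14.8-fold higher in MT-HGF cells with AG1478 than in MT-HGF cells (3.89 ± 0.17 log2 units, SE, n = 3 arrays per group), rank 2 from the top among all 15868 genes in that comparison. It was also 4.12-fold higher than in WT cells (2.04 ± 0.17). In MT-HGF cells it was 3.59-fold lower than in WT cells (-1.84 ± 0.17), and in RAS cells 2.61-fold lower (-1.38 ± 0.17). Its WT arrays had an SD of 0.38, the widest among the groups of these 7 genes, and its AG1478 arrays one of 0.048. The difference between MT-HGF and RAS cells was -0.46 ± 0.17, and it became -0.31 without replicate 1 of MT-HGF cells or replicate 2 of RAS cells and -0.62 without replicate 1 of RAS cells.

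**Figure D2:**
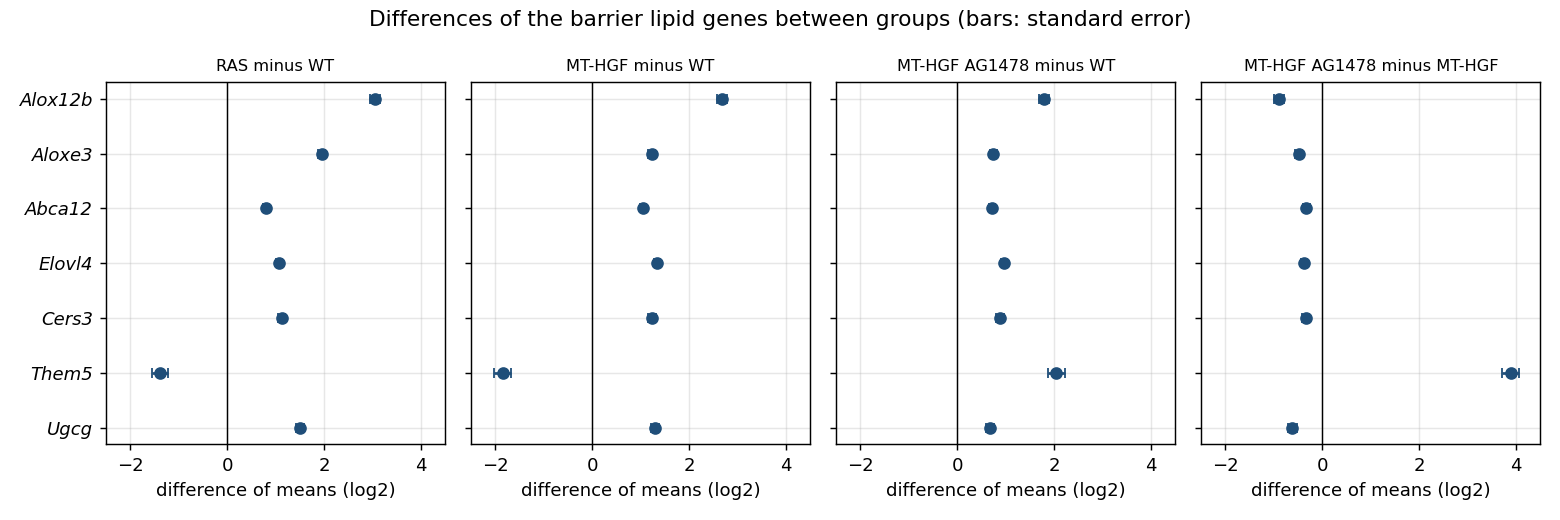
Differences of group means in log2 units (x axis) for the 7 genes (rows) in 4 comparisons, with points at the difference and bars at the standard error of the fit. Against WT cells 6 genes lie right of 0 in RAS and MT-HGF cells with Them5 left of it, and AG1478 against MT-HGF shows the opposite sides.

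To set the profiles against each other, each array's value was taken less the gene's own WT mean, and the root mean square difference between genes was computed over the 9 arrays that are not WT. The most alike were Elovl4 and Cers3, at 0.090 log2 units. Of the genes tested outside the 7, 0 were as close to Elovl4 as Cers3 was. Seen from Cers3, however, Zfand5 was slightly closer than Elovl4, at 0.088. Abca12 and Cers3 differed by 0.24, Cers3 and Ugcg by 0.26, Abca12 and Elovl4 by 0.27, and Aloxe3 and Ugcg by 0.28. Outside the 7, 145 genes were closer to Abca12 than Cers3 was, and 195 were closer to it than Elovl4 was. For Cers3, 81 such genes were closer than Ugcg, and for Aloxe3, 21 were closer than Ugcg. The genomic neighbours Alox12b and Aloxe3 were less alike, at 1.22, and 205 genes outside the 7 were closer to Alox12b than Aloxe3 was. Them5 stood apart from each of the others, by 2.23 (Abca12) to 3.67 (Alox12b). The measure counts size as well as direction, so the large differences of Alox12b set it apart from genes that moved the same way.

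**Figure D3:**
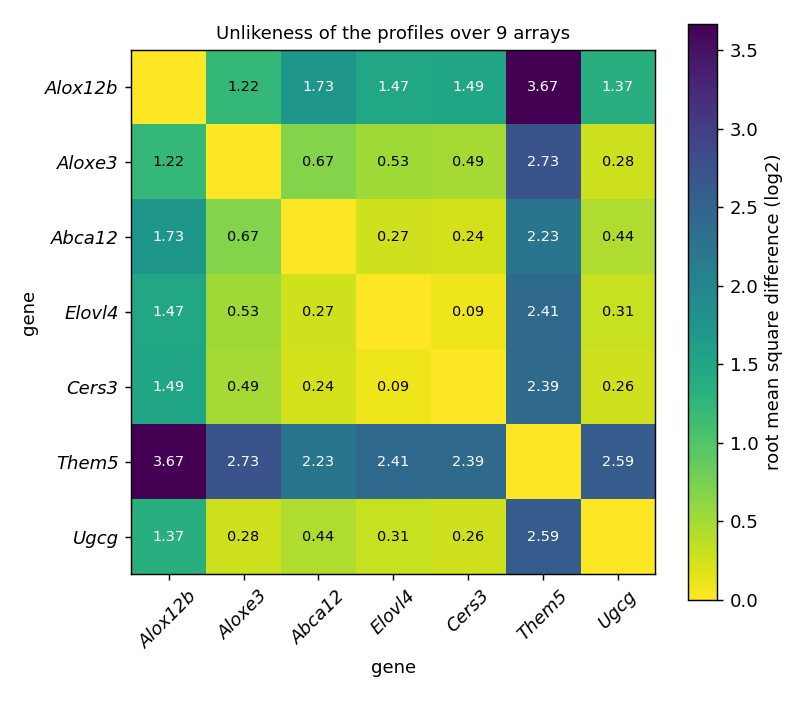
Root mean square difference in log2 units between the profiles of each pair of the 7 genes (rows and columns, colour and printed value) over 9 arrays. Elovl4 and Cers3 are closest at 0.09, and the row of Them5 holds the largest values, up to 3.67.

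Other genes followed single profiles closely. The nearest to Alox12b were Lce3c (0.19 log2 units), a late cornified envelope gene, Scnn1b (0.23), a subunit of the epithelial sodium channel, and Gjb6 (0.25), which encodes connexin 30. Nearest to Aloxe3 were Cpeb4 and Ccng2 (both 0.12) and Pfkfb4 (0.14). Nearest to Elovl4 were Tgm1 (0.10), the transglutaminase of the cornified envelope, Spink5 (0.10), a protease inhibitor of the barrier, and Dock9 (0.12). Cers3 was followed by Zfand5 (0.088), Cflar (0.11) and Tspan15 (0.12), Abca12 by Tbx6 (0.078), Kdm7a (0.081) and Sec11c (0.089), and Ugcg by Crybg3 (0.081), Phlda1 (0.15) and Ifi202b (0.16). Them5 had no such close neighbour. The nearest was Pou2f3 (0.61), a POU-domain transcription factor of suprabasal keratinocytes, with differences of -1.08 in RAS, -1.29 in MT-HGF and 1.29 in AG1478-treated MT-HGF cells, each against WT cells. Next came Dapl1 (0.74) and Il18 (0.97), which were also lower in RAS (-1.57 and -0.50) and MT-HGF cells (-0.67 and -0.63) and higher in AG1478-treated MT-HGF cells (2.30 and 1.31) than in WT cells.

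Relatives of the 7 genes in their own families differed in both directions. Their lists were also chosen with earlier results of these data known, so the p-values are a description. Among lipoxygenases, Alox5, Alox8, Alox12e and Alox15 and the helper gene Alox5ap were not above background in any group. Alox12, a 12-lipoxygenase gene, was above background in MT-HGF cells with and without AG1478, and with AG1478 it rose by 0.40 ± 0.084 log2 units against untreated MT-HGF cells (limma adjusted p = 0.00327). Among ceramide synthases, Cers6, which makes ceramides with shorter chains, fell by 0.66 ± 0.068 in RAS against WT cells (adjusted p = 9.60e-07), and Cers5 by 0.36 ± 0.077 (adjusted p = 0.0018). Cers2, for very long chains, rose by 0.53 ± 0.062 in MT-HGF against WT cells (adjusted p = 2.72e-06) and fell by 0.58 ± 0.062 in MT-HGF cells with AG1478 against MT-HGF cells (adjusted p = 5.82e-06). Among elongases, Elovl6 rose by 1.06 ± 0.079 in MT-HGF against WT cells (adjusted p = 1.14e-08) and by 0.66 ± 0.079 in RAS against WT cells (adjusted p = 5.19e-06). Elovl1 rose by 0.59 ± 0.065 in MT-HGF against WT cells (adjusted p = 1.18e-06) and fell by 0.40 ± 0.065 with AG1478 against MT-HGF cells (adjusted p = 0.000313). Among ABCA transporters, Abca7 rose by 0.90 ± 0.065 in MT-HGF against WT cells (adjusted p = 7.47e-09), and the cholesterol transporter gene Abca1 fell by 0.46 ± 0.077 in RAS against WT cells (adjusted p = 0.000171). Them4, another thioesterase gene of the family of Them5, was not called in any of the 5 comparisons, and it was not above background in MT-HGF cells with AG1478. Them6, of the same family, fell by 0.28 ± 0.083 with AG1478 against MT-HGF cells (adjusted p = 0.0273), a call lost with array weights and without replicate 1 or 3 of MT-HGF cells or replicate 2 or 3 of the AG1478 group, and by 0.30 ± 0.083 against WT cells (adjusted p = 0.00794), a call lost without replicate 2 of WT cells.

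The rest of the barrier lipid pathway and the families above were described together with 104 genes in 10 lists. Of these 86 were tested, and 74 lay above background on at least 1 array. All are called pathway genes here, but family members were listed as relatives of the 7. Counts and medians of the 86 therefore do not describe the pathway alone. The lists were chosen with earlier results of these data known, and genes named outside the families are among the largest called differences. Counts, medians and p-values of these genes, here and below, are therefore a description. In RAS against WT cells 40 of the 86 were higher and 14 lower (46.5% and 16.3%, against 12.6% and 19.9% of all genes). The median difference was 0.11 log2 units against -0.02 for all genes tested. These counts and medians hold every gene tested, so that some called genes lay at or below background in both groups, namely 1 of the 14 lower here, 2 of the 15 lower in MT-HGF against WT cells, 2 of the 9 lower in MT-HGF against RAS cells, and 1 of the 41 higher and 1 of the 11 lower in MT-HGF cells with AG1478 against WT cells. In MT-HGF against WT cells 47 were higher and 15 lower (54.7% and 17.4%, against 17.1% and 23.9% of all genes). The median was 0.33 against -0.03. In MT-HGF cells with AG1478 against WT cells 41 were higher and 11 lower (47.7% and 12.8%, against 16.8% and 26.2% of all genes). The 11 became 5 without replicate 2 of WT cells and 7 without their replicate 3. The 10 genes of acylceramide synthesis and the lipid envelope stand next to the 7, Them5 aside, in the pathway. They had 9 higher and 0 lower in RAS and in MT-HGF cells against WT cells, with medians of 1.24 and 1.42. Degs2, which hydroxylates the sphingoid base of skin ceramides, rose by 4.0 ± 0.090 in MT-HGF (adjusted p = 1.33e-14) and by 3.38 ± 0.090 in RAS cells (adjusted p = 9.64e-14). Ephx3, an epoxide hydrolase gene downstream of the lipoxygenases, rose by 3.29 ± 0.12 in MT-HGF cells and by 2.80 ± 0.12 in RAS cells. Sdr9c7, which oxidises their products, rose by 2.73 ± 0.071 in MT-HGF cells and by 2.40 ± 0.071 in RAS cells. Pnpla1, the acyl transferase gene for acylceramide, rose by 2.34 ± 0.072 in RAS cells. In contrast, the serine palmitoyltransferase gene Sptlc3 fell by 0.90 ± 0.10 (adjusted p = 3.21e-06) and the sphingomyelin synthase gene Sgms1 by 0.54 ± 0.081 (adjusted p = 5.98e-05) in RAS against WT cells. The 9 sphingoid base and ceramide synthesis genes tested had 3 higher and 3 lower there.

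With AG1478 the pathway genes were mixed, as were the 7 genes. In MT-HGF cells with AG1478 against MT-HGF cells 15 of the 86 were higher and 24 lower (17.4% and 27.9%). Of all genes, 6.57% were called higher and 9.91% lower. The median of the 86 was 0.00 against 0.02 for all genes tested. The 15 became 7 without replicate 2 and 9 without replicate 1 of MT-HGF cells, and 8 without replicate 1 or replicate 2 of the AG1478 group. Lower were Pla2g4e, a phospholipase family gene, by 1.04 ± 0.10 (adjusted p = 1.80e-06), Degs2 by 0.90 ± 0.090 (adjusted p = 2.71e-06), the glucosylceramidase gene Gba2 by 0.82 ± 0.12 (adjusted p = 0.000136) and the acid sphingomyelinase gene Smpd1 by 0.70 ± 0.091 (adjusted p = 4.12e-05). Higher, as Them5 was, were Cyp2b19, an epoxygenase gene of mouse keratinocytes, by 1.34 ± 0.12 (adjusted p = 6.63e-07), Pla2g2f, a secreted phospholipase gene of the epidermis, by 1.18 ± 0.10 (adjusted p = 6.45e-07), and the ceramidase gene Acer2 by 0.99 ± 0.096 (adjusted p = 2.05e-06). Of the 10 granular layer markers, 5 were called higher, 0 lower and 5 were not called in that comparison. Their differences ranged from -0.11 to 0.97 log2 units, with a median of 0.27. The 6 genes other than Them5 had lower levels with AG1478 in the same comparison.

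**Figure D4:**
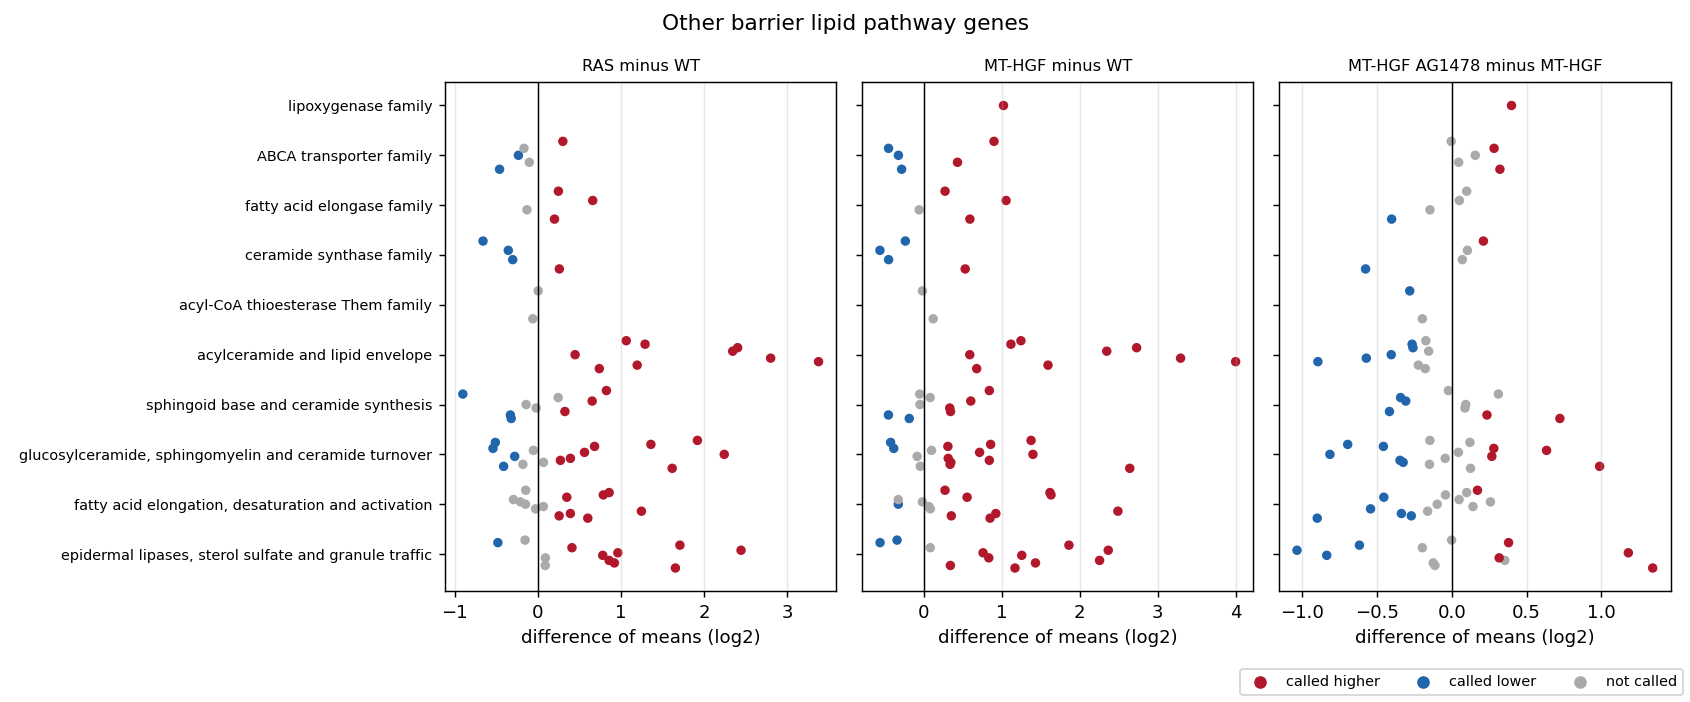
Differences of group means in log2 units (x axis, its own range in each panel) for other barrier lipid pathway genes by list (rows), in 3 comparisons. Each point is a gene above background in at least 1 of the groups compared, red if called higher, blue if called lower and grey if not called. The acylceramide and lipid envelope list lies right of 0 in RAS and MT-HGF cells against WT cells, and left of it with AG1478 against MT-HGF cells.

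MT-HGF and RAS cells were also compared directly. Aloxe3 and Alox12b were lower in MT-HGF than in RAS cells, and Elovl4 (0.26 ± 0.063 log2 units, SE) and Abca12 (0.25 ± 0.065) were higher. The difference of Cers3 was 0.11 ± 0.078, with overlapping arrays, and that of Ugcg was -0.21 ± 0.089, with arrays that did not overlap. Of all 15868 genes tested, 3118 were higher and 3107 lower in MT-HGF cells without overlap of arrays. Of the 86 pathway genes 29 were higher and 9 lower in MT-HGF cells (33.7% and 10.5%, against 13.4% and 12.6% of all genes). The 9 became 5 without replicate 2 of MT-HGF cells. The desaturase gene Fads2 rose by 1.24 ± 0.11 (adjusted p = 7.48e-07) and the skin ceramidase gene Acer1 by 1.02 ± 0.12 (adjusted p = 1.43e-05), while Gba2 fell by 0.84 ± 0.12 (adjusted p = 7.59e-05).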

How the data were processed

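The values are the authors' deposited log2 expression values, made with RMA (background correction, quantile normalization and probe summary) per the submitters' processing notes. The RMA version and the number of runs are not given in the sources used here. Of 35511 transcript clusters, 21789 had a single gene symbol, 1621 had several and 12101 were not listed in the annotation. Clusters had to exceed the 30th percentile of an array on 3 or more arrays, and a gene's cluster with the highest mean was used. Group means of all 12 arrays were fitted with limma 3.58.1 in R 4.3.3 (8 residual and 8.02 prior degrees of freedom), with Benjamini-Hochberg adjustment over the 15868 genes. Standard errors are those of this fit. A gene not above background on any array of both groups is given no difference by name, but stays in counts and medians of lists. The fit was tested on simulated data.

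The 7 genes and the pathway lists were chosen with earlier results of these data known. The design text names 3 conditions, while the labels give 4, which were followed. Named pathway genes are family members and, of the other lists, the 6 largest called rises and falls of a comparison. The 3 nearest genes are named for each profile. Precision is limited by the number of arrays, which carry no read depth. Alternatives were other filters, scalings and variance models, array weights, the mean of a gene's clusters, a replicate block, fits on 2 groups alone and leaving out each array.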

Additional observations from a re-analysis of the deposited data

How the results depend on the processing

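The differences of the 7 genes kept their sign in all 5 comparisons under each of 21 alternatives (other filters, variance models and scalings, array weights, the mean of a gene's clusters, fits on 2 groups alone and leaving out each array), and none moved by more than 0.22 log2 units. The count of the 7 genes called stayed at 7 in 4 comparisons and was 4 in MT-HGF against RAS cells, 3 to 5 there without single arrays and 6 with array weights, a second quantile normalization or a fit on the 2 groups alone. Of the pathway genes, those higher with AG1478 against MT-HGF cells, 15, became 9 with median centring and 7 to 17 without single arrays. Those lower with AG1478 against WT cells, 11, became 20 with array weights and 5 to 14 without single arrays. Those lower in RAS against WT cells, 14, became 22 with array weights, whose estimate stopped short of convergence. Those lower in MT-HGF against RAS cells, 9, became 5 to 10 without single arrays. Over all genes, array weights gave 3100 higher and 4996 lower in RAS against WT cells in place of 2004 and 3154, and without replicate 2 of MT-HGF cells 683 in place of 1043 were higher with AG1478 against MT-HGF cells. The cause of these moves was not tested. The replicate numbers were not taken to pair the arrays, since in 0 of 6 pairs of groups did all same-numbered arrays deviate together with a correlation over 0.1. Such correlations came to 6 of 9 among WT, RAS and MT-HGF arrays and 1 of 9 with AG1478 arrays. For RAS and MT-HGF arrays each same-number correlation (0.087 to 0.495) was above the highest other (0.037), a hint from the data and not from the design. With the number as a block, 5 of the 7 genes were called in MT-HGF against RAS cells, and pathway genes higher with AG1478 against MT-HGF cells came to 17. Signals near background and 3 arrays per group limit what can be seen.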
